A study of Mus musculus with 25 samples.

Results

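H3K27me3, a histone mark laid down by Polycomb repressive complexes at silenced genes, was examined over 9 genes for neural basic helix-loop-helix (bHLH) transcription factors in regenerating mouse myofibers: Neurog1, Neurog2, Neurog3, Neurod1, Neurod2, Atoh1, Olig1, Olig2 and Ptf1a. The genes were taken by symbol, as all rows of the 12 deposited H3K27me3 peak lists that the authors had assigned to them. 8 of the 9 genes had at least 1 such row, of 6092 genes with a peak in any list, and 256 of 34244 peaks fell to them. The study asked how mitofusin 2 and HIF1α activity regulate the maturation of new myofibers after injury, and measured repressive histone marks in them. Myofibers were wild-type, mfn2-/- (without mitofusin 2, a fusion protein of the outer mitochondrial membrane), vhl-/- (without the von Hippel-Lindau protein, which marks HIF1α for degradation) or HIF1dPA (expressing a proline-to-alanine HIF1α that VHL does not recognise), with 3 lists for each genotype. All mice, the wild-type included, carried a mito-Dendra2 allele driven by Pax7-Cre(ERT2), a tamoxifen-dependent Cre of muscle stem cells, so that alleles recombine in those cells and in the fibers they form. Tamoxifen was given at 75 mg/kg for 5 days, 1.2% BaCl2 (50 µL) was used to injure the tibialis anterior, and 14 days later the Dendra2+ fibers were dissected. The ages of the mice are not given in the sources used here.

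Proneural bHLH factors bind DNA as dimers with broadly expressed E proteins and switch progenitors toward a neuronal or glial fate. Neurogenins and Atoh1 act early in this choice, NeuroD factors act in neurons that have begun to differentiate, Olig1 and Olig2 direct the oligodendrocyte lineage, and Ptf1a acts in the cerebellum, retina and pancreas. Skeletal muscle uses related bHLH factors of the MyoD family, and the neural genes are held silent outside their own lineages, where many are established Polycomb targets rich in CG dinucleotides.

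The 250 bases before the RefSeq start (GRCm38.p6, the assembly that mm10 names) are printed for 4 of the genes, 5′ to 3′ along the gene, with every CG dinucleotide in capitals. They are shown because they span the range of CG content and of peak calls at a start. Neurog2 (chr3:127632886-127633135, plus strand) holds 8 CG and was touched by a peak in 5 of 12 lists, and Atoh1 (chr6:64728875-64729124, plus strand) holds 14 CG and was touched in 4 lists. For Neurog2 the start entry used (127633136) lies inside the RefSeq gene span, which begins at 127632733. Its window is therefore within that span, and its CG count and its calls at the start depend on the entry used. Neurog1 (chr13:56252181-56252430, minus strand) holds 29 CG and was touched in 1 list, and Neurod1 (chr2:79456637-79456886, minus strand) holds 22 CG and was touched in 0 lists.
Neurog2: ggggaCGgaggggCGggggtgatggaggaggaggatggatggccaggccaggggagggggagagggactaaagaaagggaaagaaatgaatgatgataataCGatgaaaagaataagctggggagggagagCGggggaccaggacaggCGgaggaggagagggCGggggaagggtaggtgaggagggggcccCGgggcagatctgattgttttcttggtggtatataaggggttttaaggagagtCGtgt
Atoh1: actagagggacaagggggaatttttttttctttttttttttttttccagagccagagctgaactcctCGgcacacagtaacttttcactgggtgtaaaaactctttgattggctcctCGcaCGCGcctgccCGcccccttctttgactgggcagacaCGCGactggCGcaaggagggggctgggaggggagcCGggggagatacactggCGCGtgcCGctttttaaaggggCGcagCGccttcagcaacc
Neurog1: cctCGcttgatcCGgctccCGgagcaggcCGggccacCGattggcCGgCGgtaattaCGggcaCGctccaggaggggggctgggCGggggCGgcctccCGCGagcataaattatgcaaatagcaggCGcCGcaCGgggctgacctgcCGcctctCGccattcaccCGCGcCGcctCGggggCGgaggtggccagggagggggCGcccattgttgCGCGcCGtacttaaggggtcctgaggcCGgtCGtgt
Neurod1: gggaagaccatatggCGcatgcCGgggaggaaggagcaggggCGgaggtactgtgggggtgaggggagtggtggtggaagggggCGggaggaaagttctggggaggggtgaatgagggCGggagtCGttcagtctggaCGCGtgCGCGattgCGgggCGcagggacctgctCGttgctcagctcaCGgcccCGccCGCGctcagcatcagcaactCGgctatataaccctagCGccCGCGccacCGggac

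The lists of the 4 genotypes differed in length. Wild-type lists held 3433 to 3776 peaks, mfn2-/- lists 3358 to 3679, vhl-/- lists 3636 to 4035 and HIF1dPA lists 482 to 501. Sequencing depth is unknown, so a gene without a peak in a HIF1dPA list was not called there, which is not a measurement that the mark was absent. From 30 to 30.3% of peaks lay on the X chromosome in the mfn2-/- lists and from 0.146 to 1.24% in the other 9, which left mfn2-/- lists with 2342 to 2574 autosomal peaks. All 9 genes are autosomal. Of 13 skeletal muscle marker genes, 0 had an H3K27me3 peak in any list, while 5 of 6 neuronal markers had one in at least 1 list. These were Rbfox3 in 9 lists, Syt1 in 7, Stmn2 in 5, Snap25 in 2 and Map2 in 1. Single lists held fewer of the 6 neuronal markers, on average 2.33 for both wild-type and vhl-/- and 1.67 for both HIF1dPA and mfn2-/-. No share over all genes was set beside the marker counts. Of 5 Schwann cell and oligodendrocyte markers 2 had a peak, of 3 fibroblast markers 1 (Pdgfra, 9 lists), of 3 leukocyte markers 1 (Ptprc, 1 list), of 3 endothelial markers 0, and Pax7, which marks muscle stem cells, had one in 5 lists. These are tissue samples, so fewer nuclei carrying the mark and less mark per nucleus cannot be told apart.

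Neural bHLH genes carried H3K27me3 peaks in every list, and 6 of them, Neurog1, Neurog2, Neurod2, Atoh1, Olig1 and Olig2, did so in all 9 wild-type, mfn2-/- and vhl-/- lists. Among all genes with a peak, 367 of 6092 (6.02%) were in all 9, a share not matched for the number of peaks per gene. The number of the 9 genes with a peak was 6.67 ± 0.577 in wild-type, 6.67 ± 0.577 in the mfn2-/- lists, 7.33 ± 1.15 in the vhl-/- lists and 1.67 ± 0.577 in HIF1dPA lists (SD over 3 lists). The peaks assigned to them covered 27303 ± 5050 bp in wild-type, 21145 ± 2020 bp in the mfn2-/- lists, 36420 ± 7300 bp in the vhl-/- lists and 1306 ± 773 bp in HIF1dPA lists (SD over 3 lists). The genes also took a smaller mean share of the HIF1dPA lists, whose length differs. They held 0.402 ± 0.196% of HIF1dPA peaks beside 0.758 ± 0.107% for wild-type, 0.648 ± 0.167% for mfn2-/- and 0.871 ± 0.112% for vhl-/- (SD, n = 3 each). In the HIF1dPA lists that share rested on 1, 2 and 3 peaks. It lay below every wild-type and vhl-/- list, but in replicate 3 (0.599%) above mfn2-/- replicates 1 (0.512%) and 3 (0.598%). The median covered length of a neural bHLH gene with a peak was 3712 bp in wild-type, 2820 bp in the mfn2-/- lists, 4816 bp in the vhl-/- lists and 590 bp in HIF1dPA, beside 881, 831, 988 and 626 bp for all genes with a peak.

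**Figure D1:**
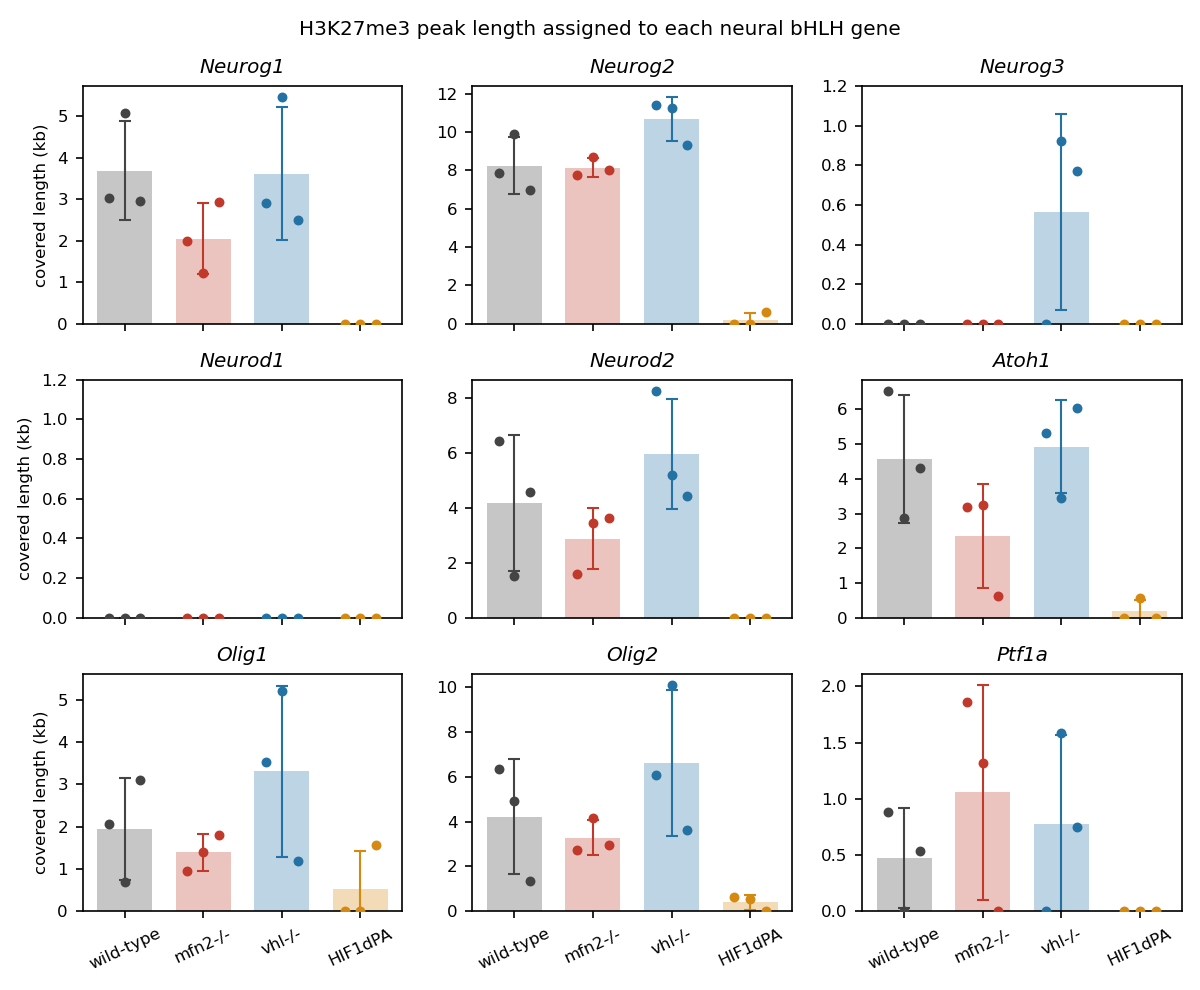
Base pairs (in kb) covered by the H3K27me3 peaks assigned to each of 9 genes, with 1 point per list, bars for the mean and lines for the SD (n = 3 lists per genotype), each panel with its own vertical scale. Neurog2 lies highest in the wild-type, mfn2-/- and vhl-/- lists, the HIF1dPA points lie at or near 0 except for 1565 bp at Olig1 in replicate 3, and Neurod1 has no assigned peak.

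Neurog2, a neurogenin that starts neuronal differentiation in the dorsal forebrain and in sensory ganglia (gene at chr3:127632733-127635636), had the longest covered length of the 9 genes. Its peaks covered 7847, 9910 and 6988 bp in the wild-type lists, 7734, 8680 and 7998 bp in the mfn2-/- lists, 11384, 11238 and 9337 bp in the vhl-/- lists and 0, 0 and 590 bp in HIF1dPA. Wild-type and mfn2-/- lists overlapped, 2 of the 3 vhl-/- lists lay above every wild-type list, and the HIF1dPA lists lay below all others. In wild-type its range did not overlap that of Atoh1, the next gene, nor in mfn2-/- that of Olig2, whereas in vhl-/- its lowest list fell below the highest of Olig2. The mark was called as 5 to 11 separate peaks per list outside HIF1dPA, from 8.4 kb before to 11.8 kb after the start. Over these 9 lists 18399 bp were covered at least once, 1568 bp of them in a single list and 9342 bp in 5 or more. The stretch from 1535 to 2721 bp after the start (chr3:127634671-127635857), which runs over the end of the gene, was covered in at least 6 of the 9 lists at each base and in all 9 at some. The only HIF1dPA peak, of 590 bp in replicate 3, lay on the start entry used here (chr3:127632949-127633538) and met the window printed above. It also met peaks of 2 wild-type, 2 mfn2-/- and 1 vhl-/- lists.

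Neurog1, the neurogenin of proximal cranial sensory neurons (gene at chr13:56250478-56252180), was covered over 3042, 5074 and 2951 bp in wild-type, 2004, 1228 and 2928 bp in the mfn2-/- lists, 2912, 5456 and 2491 bp in the vhl-/- lists and 0 bp in all 3 HIF1dPA lists. Every mfn2-/- list lay below every wild-type list and the vhl-/- lists overlapped both. Of 4858 genes with a peak in either genotype, 242 (4.98%) had all mfn2-/- lists below all wild-type lists. Neurog1 was the 1 of 7 neural bHLH genes that did. Only a gene with a peak in all 3 wild-type lists can do so, which held for 762 genes and 6 of the 7. The reverse order held for 230 genes (4.73%) and 0 of the 7. Of its 28 peaks 15 were classed as distal intergenic. A peak 4 to 8 kb before the start was present in 8 lists, 3 wild-type, 2 mfn2-/- and 3 vhl-/-, and an 853-bp core of it (chr13:56257573-56258425) was covered in at least 6 of the 9 lists at each base. Only 1 list had a peak over the start, although 8 had one that met the gene.

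Neurog3, which specifies endocrine cells of the pancreas and intestine (gene at chr10:62133090-62134763), had a peak in 2 lists, of 920 and 771 bp in vhl-/- replicates 2 and 3. Both sat over the gene within 1.2 kb after the start, at percentiles 56.5 and 50.0 of their lists. Counted by position, 3 further lists (wild-type 2 and 3 and mfn2-/- 3) had a peak within 5 kb of the gene that the authors assigned to Fam241b, and none of these met Neurog3 itself.

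Neurod2, a factor of maturing cortical and cerebellar neurons (gene at chr11:98325415-98329645), was covered over 6418, 1518 and 4551 bp in wild-type, 1579, 3439 and 3611 bp in the mfn2-/- lists, 8241, 5197 and 4435 bp in the vhl-/- lists and 0 bp in the HIF1dPA lists. The vhl-/- lists all lay above the mfn2-/- lists, and the wild-type lists spanned most of both ranges. A 625-bp stretch inside the gene (chr11:98326557-98327181, 2464 to 3088 bp after the start) was covered in at least 6 of the 9 lists at each base and in all 9 at some. Peaks 4 to 12 kb after the start, beyond the end of the gene, were present in 8 lists. A peak lay over the start in 1 list.

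Neurod1, required for endocrine pancreas and for inner ear and granule neurons (gene at chr2:79452637-79456636), had no row in any list by the authors' assignment. By position, 9 lists (2 wild-type, 3 mfn2-/-, 3 vhl-/- and 1 HIF1dPA) held 12 peaks within 5 kb of the gene, all assigned to the neighbouring gene Cerkl. In 6 lists such a peak met the Neurod1 gene, at its 3′ end, from 2657 to 4305 bp after the start. These 6 peaks reached percentiles 85.1 and 89.1 in wild-type 1 and 2, 71.3 in mfn2-/- 2, 92.9 and 91.7 in vhl-/- 1 and 3, and 14.3 in HIF1dPA 1. Neurod1 therefore counts as unmarked only under the assignment of each peak to a single gene, and no peak touched the window before its start that is printed above.

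Atoh1, which founds cerebellar granule neurons and inner ear hair cells (gene at chr6:64729125-64731245), was covered over 6523, 2866 and 4312 bp in wild-type, 3180, 3239 and 632 bp in the mfn2-/- lists, 5311, 3437 and 6046 bp in the vhl-/- lists and 0, 562 and 0 bp in HIF1dPA. The vhl-/- lists lay above all mfn2-/- lists, and wild-type lists overlapped both. In mfn2-/- replicate 3 the single peak ran from -2937 to -2306 bp relative to the start, off the gene. Peaks over 60 kb after the start, in intergenic sequence, were assigned to Atoh1 in wild-type 1, vhl-/- 1, vhl-/- 3 and HIF1dPA 2. The HIF1dPA peak there (chr6:64797410-64797971) was the only Atoh1 peak of that genotype, ranked 456 of 499 in its list, and met no peak of another list.

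Ptf1a, whose product works in a complex with an E protein and RBPJ (gene at chr2:19445663-19447501), had 8 peaks in 6 lists. It was covered over 887, 0 and 539 bp in wild-type, 1857, 1316 and 0 bp in the mfn2-/- lists, 0, 1583 and 747 bp in the vhl-/- lists and 0 bp in HIF1dPA. In each of the 3 other genotypes 1 list had no assigned peak, and the ranges overlapped. All 8 were of the promoter class, which in the authors' annotation reaches 3 kb from a start. They lay 1.1 to 4.6 kb after the RefSeq start of Ptf1a, and none covered that start. In 2 lists an assigned peak met the gene. By position, 7 lists had a peak within 5 kb, among them 7 peaks in 4 lists that had been assigned to Ptf1aos, a neighbouring gene, and 2 assigned to 1810010K12Rik.

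Olig2, needed for motor neurons and oligodendrocytes, and Olig1, which promotes oligodendrocyte maturation, lie 41.1 kb apart on chromosome 16 (chr16:91225550-91228677 and chr16:91269769-91271939), so their intergenic peaks were divided between them. Olig2 was covered over 6323, 4933 and 1361 bp in wild-type, 2712, 4162 and 2958 bp in the mfn2-/- lists, 6092, 10087 and 3633 bp in the vhl-/- lists and 642, 558 and 0 bp in HIF1dPA. It was the gene found in most lists, 11 of 12, and wild-type and vhl-/- lists each spread over several kilobases. Olig1 was covered over 2054, 701 and 3111 bp in wild-type, 948, 1413 and 1816 bp in the mfn2-/- lists, 3528, 5222 and 1193 bp in the vhl-/- lists and 0, 0 and 1565 bp in HIF1dPA. Of the 14674 bp that the 9 longer lists covered for Olig1, 11175 bp were covered in a single list and 0 bp in 5 or more, so the lists shared few positions here, unlike at Neurog2. Together the pair had 6161 ± 2005 bp in wild-type, 4670 ± 962 bp in the mfn2-/- lists, 9918 ± 5248 bp in the vhl-/- lists and 922 ± 559 bp in HIF1dPA (SD, n = 3 each). An Olig1 peak of 921 bp in HIF1dPA replicate 3 (chr16:91271507-91272427) ranked 38 of 501 in its list, and met a peak in 1 wild-type, 0 mfn2-/- and 1 vhl-/- list.

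**Figure D2:**
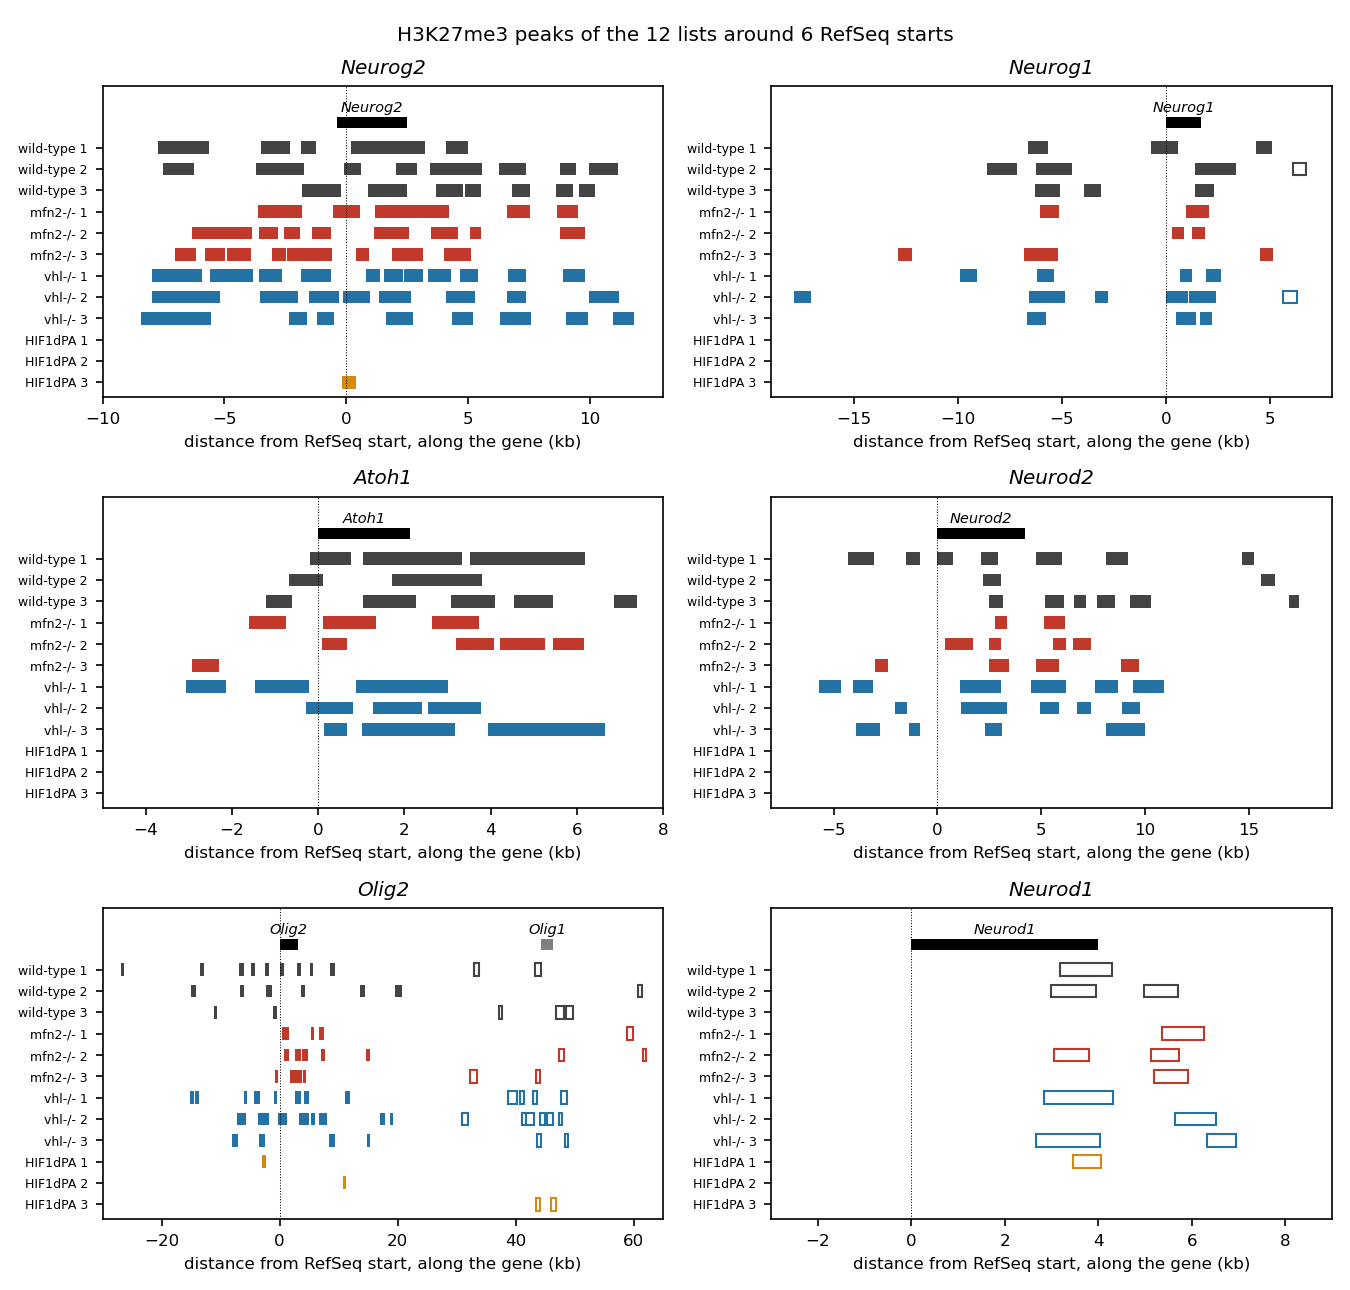
H3K27me3 peaks in each of the 12 lists (rows) around 6 genes, by distance in kb from the RefSeq start along the direction of transcription, with the gene as a bar on top. Filled boxes are peaks assigned to the named gene, open boxes peaks within 5 kb assigned to another gene or, in the Olig2 panel, to Olig1, and Atoh1 peaks over 60 kb downstream are outside its panel. Neurog2 peaks tile about the same interval in 9 lists, and all peaks at Neurod1 are open.

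Peak positions overlapped in part between lists. A pair of wild-type lists shared 0.182 of the base pairs that either had over the 9 genes (Jaccard index, mean of 3 pairs, 0.17 to 0.194), and a pair of vhl-/- lists 0.253 (0.25 to 0.258). Wild-type against mfn2-/- lists gave 0.198 (9 pairs, 0.153 to 0.24) and wild-type against vhl-/- lists 0.244 (9 pairs, 0.188 to 0.313). Over all peaks the index was 0.152 among wild-type lists, 0.19 among vhl-/- lists, 0.127 for wild-type against mfn2-/- and 0.165 for wild-type against vhl-/-. The 3 HIF1dPA lists shared 0 over the 9 genes, and over all their peaks the index was 0.0438. They held 6 peaks over the 9 genes, and only Olig2 had a peak in more than 1 of them, so the 0 says little.

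A peak rarely covered the start itself. Of 57 pairs of a neural bHLH gene and a list with a peak, 10 (17.5%) had a peak over the RefSeq start, beside 1171 of 11759 (9.96%) for all genes matched to RefSeq. Of these 10, 4 were at Neurog2, whose start entry lies inside its RefSeq gene span. Among pairs with a promoter class peak the shares were 10 of 54 (18.5%) and 1164 of 7298 (15.9%). Single peaks were 464 to 3056 bp wide, with a median of 890 bp beside 735 bp for all peaks, and 14 of 256 reached 2 kb.

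Scores were compared only as percentiles within a list, where 100 is the strongest peak. The strongest peak of Neurog2 stood at percentiles 99.5, 98.5 and 97.5 in wild-type, 99.7, 97.1 and 97.5 in mfn2-/- and 92.6, 88.0 and 96.8 in vhl-/-. In mfn2-/- replicate 1 it was 12th of 3518 and in wild-type replicate 1 it was 19th of 3776. Atoh1 reached 99.4, 99.0 and 94.5 in wild-type, 88.3, 88.3 and 60.6 in mfn2-/- and 97.2, 80.6 and 98.5 in vhl-/-. In the vhl-/- lists Atoh1 overlapped wild-type. Neurog1 stood between 90.8 and 91.8 in wild-type, 81.1 and 90.3 in mfn2-/- and 73.6 and 91.2 in vhl-/-. Neurod2 stood between 80.2 and 86.3, 68.6 and 88.4, and 87.4 and 90.9, in the same order. Among the 6 genes with a peak in all lists of both genotypes, all mfn2-/- percentiles lay below all wild-type ones for Atoh1 and Neurog1, beside 25 of 408 genes (6.13%), and above for none, beside 24 (5.88%). The vhl-/- percentiles lay below wild-type for Neurog2, beside 18 of 528 genes (3.41%), and above for Neurod2, beside 43 (8.14%). The mfn2-/- percentiles are taken among peaks of which 30 to 30.3% are X-linked, whose part in these counts of genes was not tested. Olig1 and Olig2 ranged more widely, Olig2 from 28.2 to 83.7 and Olig1 from 41.5 to 90.5 in wild-type alone. The median over the neural bHLH genes with a peak was 88.2 ± 2.14 in wild-type, 84.3 ± 6.94 in the mfn2-/- lists, 84 ± 4.19 in the vhl-/- lists and 43.7 ± 29.1 in HIF1dPA (SD, n = 3 each), while the median over all genes was 51.3 to 56.5 in the 12 lists. Ranked among autosomal peaks alone, the neural bHLH median was 88.2 ± 2.15, 80 ± 7.86, 83.9 ± 4.2 and 43.7 ± 29.1 in the same order. Genes with more peaks have more chances of a high one, and the median neural bHLH gene with a peak had 2 to 5 peaks per list outside HIF1dPA where the median gene overall had 1.

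**Figure D3:**
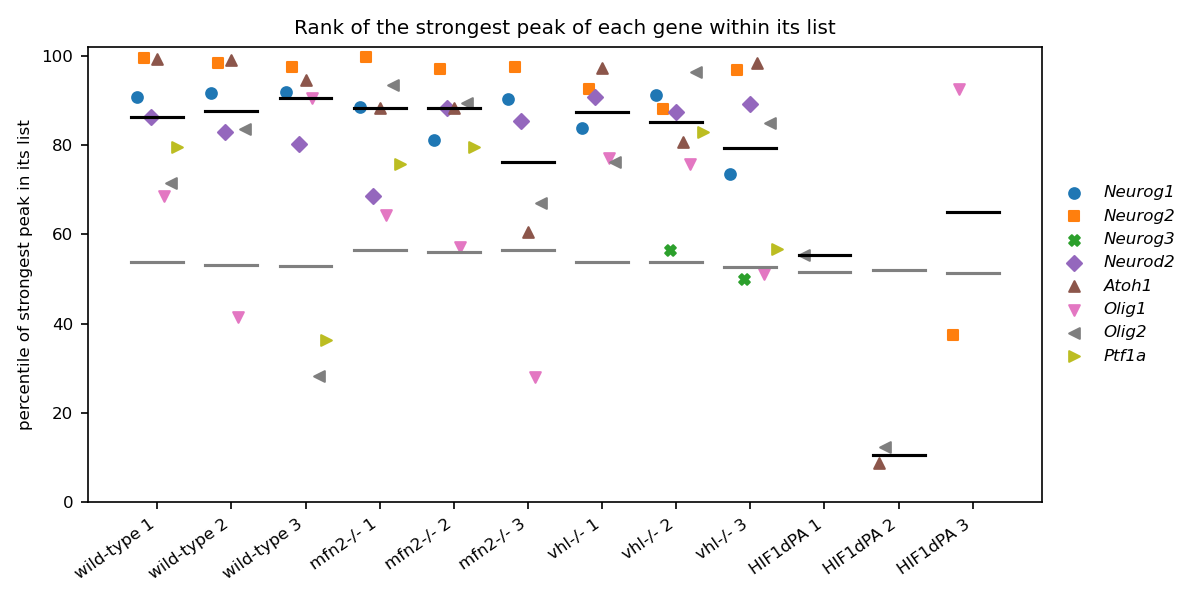
Percentile within its list of the strongest peak of each neural bHLH gene that had a peak, for each of 12 lists. Black lines mark the median of these genes and grey lines the median of all genes with a peak in that list. Neurog2 is at 88.0 or above in the wild-type, mfn2-/- and vhl-/- lists, and the HIF1dPA points run from 8.8 to 92.6.

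To ask whether genes marked in wild-type fibers kept their peaks, the 762 genes with a peak in all 3 wild-type lists were followed. The 6 neural bHLH genes among them (Neurog1, Neurog2, Neurod2, Atoh1, Olig1 and Olig2) all had a peak in all 3 mfn2-/- lists, beside 408 of 762 genes (53.5%), and in all 3 vhl-/- lists, beside 528 (69.3%). None was without a peak in all mfn2-/- lists (92 of 762, 12.1%) or in all vhl-/- lists (26 of 762, 3.41%). Genes with more peaks have more chances to keep 1, and these shares were not matched for that. The median neural bHLH gene with a peak had 2.5 to 4 peaks per wild-type list, and the median gene 1. Neurog1 and Neurod2 had no peak in any HIF1dPA list, 2 of 6 beside 389 of 762 genes (51.0%). None of the 6 had a peak in all 3 HIF1dPA lists, beside 40 of 762 (5.25%). Neurog3 was the 1 assigned gene with no wild-type peak, and it was not in all 3 lists of any mutant, beside 202 (7.77%, mfn2-/-), 37 (1.42%, vhl-/-) and 1 (0.0385%, HIF1dPA) of 2600 such genes. Without HIF1dPA replicate 3, which alone held Neurog2 and Olig1 peaks, 4 of the 6 genes had no peak there, beside 456 of 762 (59.8%). When every list was limited to its 482 strongest peaks, 3 of the 9 genes (Neurog1, Neurog2, Atoh1) were in all 3 wild-type lists, and 1 of them, Neurog1, was in no HIF1dPA list, beside 29 of 132 genes (22.0%). In those shortened lists 3.33 ± 0.577 of the 9 genes had a peak in wild-type, 3.33 ± 1.15 in the mfn2-/- lists, 2.67 ± 0.577 in the vhl-/- lists and 1.67 ± 0.577 in HIF1dPA (SD, n = 3 each).

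**Figure D4:**
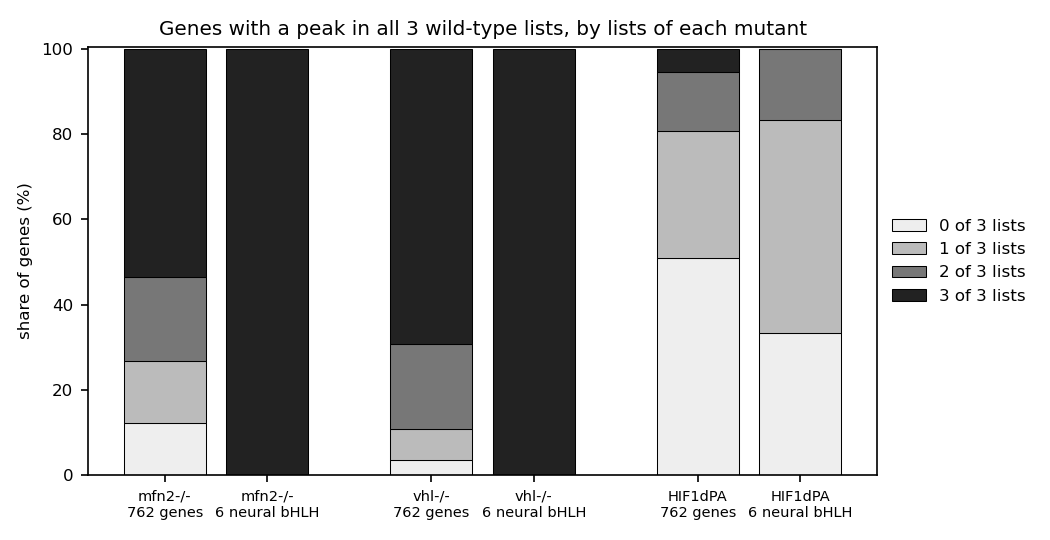
Share in percent of genes with a peak in all 3 wild-type lists that had a peak in 0, 1, 2 or 3 lists of each mutant, for all 762 such genes and for the 6 neural bHLH genes among them. The 6 genes were in 3 of 3 mfn2-/- and vhl-/- lists, and in HIF1dPA 2 of them were in 0 lists, beside 51.0% of all genes. The sets were not matched for the number of peaks per gene.

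Covered length was also compared among genotypes gene by gene, for the 2394 genes with a peak in at least 3 lists. 7 neural bHLH genes met this, and Neurog3 (2 lists) and Neurod1 (0) did not. In the exact permutation test over the 4 genotypes with Benjamini-Hochberg adjustment, 44 of 2394 genes (1.84%) and 0 of the 7 passed an adjusted p of 0.05. At an unadjusted p under 0.05 there were 794 genes (33.2%) and 5 of the 7, shares not matched for the number of lists with a peak. Neurog2 came closest (exact permutation p = 0.00136, adjusted p = 0.0535), with 57 genes ahead of it. Its adjusted p ranged from 0.0395 to 0.426 over 22 alternative settings and was at most 0.05 in 4, among them without wild-type replicate 2 (0.0439) and without vhl-/- replicate 3 (0.0395). The number of genes passing was 72 and 104 in those 2 settings, and 0 without mfn2-/- replicate 1 or any 1 of the HIF1dPA lists. The exact permutation p was 0.00779 for Neurog1 (adjusted p = 0.0734), 0.0127 for Atoh1 (adjusted p = 0.0734), 0.0189 for Neurod2 (adjusted p = 0.075), 0.0395 for Olig2 (adjusted p = 0.128), 0.12 for Olig1 (adjusted p = 0.265) and 0.301 for Ptf1a (adjusted p = 0.449). This test has little reach for a gene that differs in HIF1dPA alone, since 280 of its 15400 arrangements, a share of 0.0182, keep those lists together. Without the 3 HIF1dPA lists, 0 of 2294 genes passed the adjusted threshold, where 280 arrangements give no exact permutation p below 0.00357. An unadjusted exact permutation p under 0.05 was then found for 403 genes (17.6%) and 0 of the 7 neural bHLH genes. The lowest of the 7 was 0.075 for Neurog2 (exact permutation test, adjusted p = 0.356).

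No neural bHLH gene passed the test of wild-type against all mutant lists. In the exact two-sided permutation test of 3 against 9 lists, 0 of 2394 genes passed the adjusted threshold. At an unadjusted p under 0.05 there were 219 genes (9.15%) and 0 of the 7. The 220 arrangements give no p below 0.00455, so a gene can pass adjustment only where many others share that lowest p. Atoh1 had 4567 bp in wild-type and 2490 bp in the mutants on average (difference -2077 bp, exact permutation p = 0.214, adjusted p = 0.838), and Neurog1 had 3689 and 1891 bp (difference -1798 bp, exact permutation p = 0.15, adjusted p = 0.68). An exact permutation test of 3 lists with 3 cannot go below p = 0.1, so single mutants were set against wild-type only by whether lists overlapped. Lists of a genotype can lie wholly above others only for genes with a peak in all 3 of them. None of 8 neural bHLH genes lay wholly above wild-type in vhl-/- lists, beside 149 of 4724 genes (3.15%), or wholly below it, beside 58 (1.23%). In HIF1dPA all lists lay below all wild-type lists for Neurog1, Neurog2, Neurod2, Atoh1 and Olig2. These were 5 of 7 genes, beside 693 of 3848 genes (18.0%). Only a gene with a peak in all 3 wild-type lists can lie below, which held for 762 genes and 6 of the 7. HIF1dPA lists lay wholly above for 0 of 7, beside 3 genes (0.0780%). Between mutants, all vhl-/- lists lay above all mfn2-/- lists for Neurog2, Neurod2 and Atoh1, 3 of 8 genes, beside 345 of 4776 genes (7.22%), and the reverse held for 0 of 8, beside 220 genes (4.61%). Of the 8 genes, 6 had a peak in all 3 vhl-/- lists and so could lie above. The share over all genes was not limited to such genes. The vhl-/- lists held more autosomal peaks (3626 to 4023) than the mfn2-/- lists (2342 to 2574), and the part of this in the difference was not tested beyond the shortened lists. In those, Atoh1 had a peak in 2 mfn2-/- and 2 vhl-/- lists, Neurog2 in 3 and 2, and Neurod2 in 1 and 2.

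HIF1dPA was set against the other 9 lists in a test chosen after the data had been seen. Neurog2 averaged 197 bp in HIF1dPA and 9013 bp in the others (difference -8816 bp) and Neurog1 0 and 3121 bp, each with an exact two-sided permutation p of 0.00455, the smallest that 220 arrangements can give, and an adjusted p of 0.0579. Neurod2 (0 and 4332 bp) and Atoh1 (187 and 3950 bp) each had an exact permutation p of 0.00909 (adjusted p = 0.0955), and Olig2 (400 and 4696 bp) 0.0227 (adjusted p = 0.169). Over all genes 0 of 2394 passed the adjusted threshold, while 435 (18.2%) and 5 of the 7 neural bHLH genes were lower at an unadjusted p under 0.05. On a log2(covered bp + 1) scale 295 genes (12.3%) and the same 5 passed the adjusted threshold as lower. With the score of at least 100, 51 of 500 tested genes (10.2%) and 1 of 5 tested neural bHLH genes, Neurog2, passed as lower. Neurog1, Neurod2 and Ptf1a, without a HIF1dPA peak, entered the test only through the other 9 lists. The shares were not matched for the number of lists with a peak. That number was 9 to 11 for the 5 genes lower at an unadjusted p under 0.05, and could be as low as 3 for a tested gene. HIF1dPA lists hold fewer peaks in all, and this cannot be told apart from the genotype.

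The start regions of these genes were rich in CG. RefSeq start entries of the table used matched 8 of the 9 genes. Their 250 bases before the start held 8 CG in Neurog2, 11 in Neurod2, 14 in Atoh1, 18 in Neurog3, 19 in Ptf1a, 22 in Neurod1 and Olig2 and 29 in Neurog1. Their median was 18.5, beside 6 for 27018 promoters (quartiles 2 and 16), and even the lowest, Neurog2, had at least as many as 59.3% of promoters. Neurog2, with the fewest, had the longest covered length, and Neurod1, with 22, had no assigned peak. The Neurog2 window lies inside its RefSeq gene span, so its count depends on the start entry used. The E-box letters CANNTG, the core that bHLH dimers bind and which reads alike on both strands, were in 3 of the 8 windows (Neurog3, Neurod1 and Neurod2) and in 66.1% of all promoter windows. Of the 2394 genes with a peak in at least 3 lists, 66.2% matched a promoter entry, fewer than 80%, so their CG content is drawn but not compared.

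**Figure D5:**
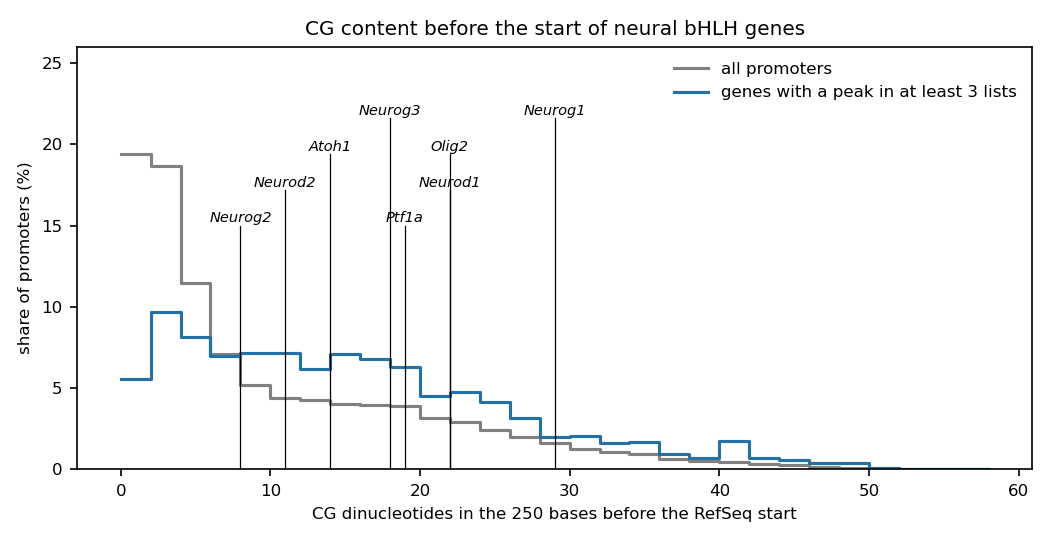
Share in percent of promoters by the number of CG dinucleotides in the 250 bases before the RefSeq start, for all 27018 promoters (grey) and for the matched genes with a peak in at least 3 lists (blue), in steps of 2. Vertical lines, whose heights carry no value, mark 8 neural bHLH genes, from 8 CG in Neurog2 to 29 in Neurog1.

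Other bHLH genes of neural lineages also carried the mark. Of 17 related genes, 12 had a peak in at least 1 list, 8 ± 1 of them in wild-type lists, 5.67 ± 1.15 in the mfn2-/- lists, 8.33 ± 1.15 in the vhl-/- lists and 3 ± 1 in HIF1dPA (SD, n = 3 each). Of the 9 that could be tested, 7 had an exact permutation p under 0.05 over the 4 genotypes, beside 33.2% of all genes, and 0 passed the adjusted threshold, beside 1.84%. These shares were not matched for the number of lists with a peak. Ascl4 was covered over 1258, 664 and 642 bp in wild-type and 1532, 1969 and 1193 bp in vhl-/-, and had no peak in any mfn2-/- or HIF1dPA list (exact permutation p = 0.0013, adjusted p = 0.0535). Of 6 related genes with a peak in all wild-type lists, 1 was in no mfn2-/- list, beside 92 of 762 genes (12.1%). Of the same 6, 2 were in no HIF1dPA list, beside 389 of 762 (51.0%). Olig3, a factor of the dorsal spinal cord, Bhlhe22, Nhlh2 and Ferd3l had peaks in 11, 11, 11 and 9 lists, and averaged 5456, 4048, 3705 and 1120 bp in wild-type. Peaks were found in fewer lists for Bhlhe23 (6 lists), Bhlha9 (5), Ascl2 (3), Neurod6 (2), Ascl5 (1) and Nhlh1 (1).

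Dimer partners and upstream regulators of these factors were listed too. Of 7 E protein and Id genes 2 had a peak, Id4, an inhibitor of bHLH dimers, in 9 lists and Id1 in 1. Of 18 Notch pathway genes, which restrain proneural genes through Hes and Hey repressors, 6 had a peak: Hes3 and Dll3 in 7 lists, Hey2 in 6, Hes2 and Notch3 in 4 and Jag1 in 1. Dll3, a Notch ligand that acts within the cell, had 617, 1669 and 2160 bp in wild-type, 621, 0 and 0 bp in the mfn2-/- lists, 1820, 1838 and 3136 bp in the vhl-/- lists and 0 bp in HIF1dPA (exact permutation p = 0.00519, adjusted p = 0.0723). Dll3 and Hey2 were the 2 of 5 tested Notch genes with an unadjusted exact permutation p under 0.05 over the 4 genotypes, beside 33.2% of all genes, and 0 passed the adjusted threshold. Of the 4 myogenic bHLH genes, which drive muscle differentiation, 1 had a peak: Myf5, over 579 bp in HIF1dPA replicate 3.

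The genes most like the mean of the 9 in covered length over the 12 lists were Gm26927 (mean absolute difference 347 bp), Rimklb (470 bp), Gm11290 (505 bp), D630011A20Rik (551 bp) and 9230102O04Rik (561 bp). Gm26927 had 2653 to 2918 bp in wild-type, 2346 to 3162 bp in the mfn2-/- lists, 3924 to 4957 bp in the vhl-/- lists and 0 bp in HIF1dPA, where the mean of the 9 genes was 2646 to 3677, 2216 to 2609, 3184 to 4793 and 71.3 to 239 bp. H3K9me3, the other silencing mark measured in these fibers, had 0 of 20998 peaks assigned to the 9 genes, and 0 within 5 kb of them in any of 12 lists.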

How the data were processed

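ChIP-seq of H3K27me3 was analysed from 12 deposited peak lists, and H3K9me3 lists only for the presence of peaks. Per the labels, the authors sheared chromatin fixed in 1% formaldehyde to about 500 bp. The submitters' processing notes name BWA 0.7.5, MACS, deepTools 3.5.0 and the build mm10. The use of the input library (not analysed here) and the handling of duplicate reads are not given in the sources used here. The deposited score, as MACS writes it, is −10 times log10 of a peak's p-value and was at least 50 in every list, and peaks were called for each list. The authors assigned each peak to 1 gene.

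Covered length per gene is the union of its assigned peaks. Tests were exact permutations of lists (Python 3.11.15, numpy 2.4.6, pandas 2.3.3), with Benjamini-Hochberg adjustment over all genes with a peak in at least 3 lists. They were tested on simulated data. The study describes the 3 lists of a genotype as biological replicates from 3 mice, while the labels do not say which list came from which animal. The 9 genes, the gene lists, the comparisons and the rule for named genes (the 9 genes, listed relatives with a peak, and the 5 closest in covered length) were chosen with earlier results of these data known. RefSeq spans, starts and sequences are from GRCm38.p6. Peaks within 5 kb by position, and the tests without a genotype or of HIF1dPA against the rest, were added after seeing the data, as were the counts of percentiles that do not overlap. The values of 1 related gene are not reported here, though counts over its list include it.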

Additional observations from a re-analysis of the deposited data

How the results depend on the processing

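Depth is unknown, and the short HIF1dPA lists limit every difference from them to what was called. With the stricter score of at least 100, the mean number of the 9 genes with a peak was 3.67 in the wild-type lists, 3.33 in the mfn2-/- lists, 4.67 in the vhl-/- lists and 0 in the HIF1dPA lists, where no percentile could then be given. Their covered length was 12272, 7509, 15812 and 0 bp. Their median percentile was ranked anew among the peaks kept, here and in the settings below, so it is not on the scale of the full lists. It was 73.9 ± 16.1, 35.2 ± 20.1 and 56.3 ± 11.3 in the first 3 genotypes (SD, n = 3 each). HIF1dPA against the other lists at this score gave 51 of 500 tested genes (10.2%) and 1 of 5 tested neural bHLH genes, Neurog2 (adjusted p = 0.0446, exact permutation test). With the 482 strongest peaks of each list, the number was 3.33, 3.33 and 2.67 in wild-type, mfn2-/- and vhl-/-, and the covered length 10075, 7509 and 9241 bp. The percentile among the peaks kept was 78.6 ± 23.9, 36.8 ± 15.5 and 54.9 ± 18.5 (SD, n = 3 each). Then 1 of the 3 neural bHLH genes in all wild-type lists was in no HIF1dPA list, beside 29 of 132 genes (22.0%). Over the 4 genotypes 1 of 462 tested genes passed. With promoter class peaks alone, the covered length was 11723, 11166 and 17054 bp. The percentile among those peaks was 81.4 ± 7.57, 71 ± 16.6 and 72.6 ± 10.6 (SD, n = 3 each). The number was then 5.67 in mfn2-/- and 1 in HIF1dPA, and 19 of 1453 tested genes passed over the 4 genotypes. By position within 5 kb, the number was 7.67 in wild-type, 7.67 in mfn2-/- and 8.67 in vhl-/-. The first 3 settings keep fewer peaks and the last adds peaks assigned to neighbouring genes, and no other cause was tested.

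Over the 4 genotypes, 131 of 2394 genes and 1 of the 7 tested neural bHLH genes passed on the log2(covered bp + 1) scale (Neurog2, adjusted p = 0.0472, exact permutation test). With autosomal peaks, 60 of 2184 genes and 1 of the 7 passed (Neurog2, adjusted p = 0.0496, exact permutation test). On the log2 scale 296 of 2394 genes and 5 of the 7 passed for HIF1dPA against the other lists, not matched for the number of lists with a peak. 0 genes passed over the genotypes with presence in place of length, without the filter on genes, without the 3 HIF1dPA lists or without the 3 mfn2-/- lists. Leaving out each list gave 0 to 104 genes and 0 to 1 of the 7. Neurog2 passed without wild-type replicate 2 (adjusted p = 0.0439, exact permutation test) and without vhl-/- replicate 3 (adjusted p = 0.0395, exact permutation test). The count was 0 without mfn2-/- replicate 1 and without any 1 of the HIF1dPA replicates, 9 without vhl-/- replicate 2 and 23 without mfn2-/- replicate 2. It was 71 and 72 without wild-type replicates 1 and 2, and 104 without vhl-/- replicate 3. Leaving out each list gave 2 to 4 neural bHLH genes in all wild-type and no HIF1dPA lists. Without HIF1dPA replicate 3 there were 4 of the 6 in all wild-type lists, beside 456 of 762 genes (59.8%). The replicate number gave no pairing: deviations of same-numbered lists correlated at -0.04 to 0.07 over 18 pairs. With it as a replicate block, 0 genes passed (455 at an unadjusted p under 0.05), and Neurog2 had an exact permutation p of 0.00521 and an adjusted p of 0.179. The 576 arrangements of that exact permutation test give no p below 0.00174.

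The difference of mutants from wild-type, called for none of the genes, changed sign in these settings. Olig2 stood at 1195 bp with the score of 100, 1217 bp with the strongest peaks, 36.9 bp with promoter peaks, 735 bp without the HIF1dPA lists and 280 bp without wild-type replicate 1. Neurod2 stood at 767, 15.7 and 255 bp with the strongest peaks, with promoter peaks and without HIF1dPA, and Neurog2 at 1147 bp without HIF1dPA. Olig1 stood at 12.8 bp with promoter peaks, 398 bp without the HIF1dPA lists, 365 bp without wild-type replicate 3 and 5.29 bp without HIF1dPA replicate 1 or 2. Over the omission of each wild-type list, Olig1 spanned -840 to 365 bp, Olig2 -2201 to 280 bp and Ptf1a -102 to 342 bp. Ptf1a turned to -1.69 on the log2 scale, -0.222 in presence, -87 bp without the mfn2-/- lists, -102 bp without wild-type replicate 2 and -19.6 bp without mfn2-/- replicate 1.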
